A study of Mus musculus with 32 samples.

Results

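This account covers 9 mouse genes of fibroblast growth factor (FGF) signalling, chosen by name: the 5 ligand genes Fgf4, Fgf5, Fgf8, Fgf15 and Fgf17 and the 4 receptor genes Fgfr1, Fgfr2, Fgfr3 and Fgfr4. All 9 were found by symbol among the 31053 genes of the count tables, and all 9 passed the filter on low counts (1 CPM in 4 libraries). Fgf5, Fgf8 and Fgf17 passed it only through day 4 libraries, and Fgf8 only through those of induced cells. RNA was sequenced from mouse embryonic stem cells of the line C1. These cells lack endogenous β-catenin and carry lentiviral EF1a-rtTA and TRE3G transgenes for a constitutively active β-catenin mutant, fused to mCherry and to a destabilizing domain, and were selected with drugs after infection. Doxycycline (dox) switches on transcription of the fusion, and trimethoprim (TMP) stabilizes the protein.

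The 8 groups held 4 libraries each, which the labels call biological replicates, and every group shared the β-catenin knockout. A figure legend of the paper describes the 4 samples of a group as being of the same experiment. At day 0, in pluripotent culture, C1 had received only TMP at 10 µM for 48 h, whereas C1M and C1H had received dox at 100 ng/mL with TMP for 48 h and had been sorted for middle and high mCherry. At day 4, after culture on gelatin in plain NDiff227, C1T derived from C1 and was kept in TMP. C1MV and C1HV derived from C1M and C1H and were cultured in DMSO after withdrawal of both inducers. C1MDT and C1HDT derived from the same sorted cells and were kept in dox and TMP. Before sorting, the study's methods kept the cells in medium with LIF and with inhibitors of GSK3 and MEK. The deposited sample descriptions name serum with LIF and a starvation step instead, so the sources differ on the medium before sorting. The paper states that the cells profiled by RNA-seq all came from the medium with LIF and both inhibitors. A MEK inhibitor blocks the kinase step through which FGF receptors reach ERK. With that medium at day 0, the change of day cannot be told apart from the removal of both inhibitors and LIF. C1T also differed from the withdrawn groups in holding TMP, and the part of TMP was not tested. C1 and C1T had received no dox, and C1 was sorted as living cells without a gate on mCherry. In every comparison of induced cells with C1 or C1T, dox, the gate and the fusion cannot be told apart.

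FGF ligands are secreted proteins that bind receptor tyrosine kinases together with heparan sulfate. The activated receptors signal through adaptors and RAS to the kinase ERK, which in turn raises its own inhibitors of the Sprouty and dual-specificity phosphatase families. In the early mouse embryo, Fgf4 from pluripotent cells drives their exit from naive pluripotency and the choice between epiblast and primitive endoderm, and Fgf5 is a classical marker of the epiblast after implantation.

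Total counts per library ranged from 1366951 to 3648787, with a median of 2402467.5. A count of 3 in a library corresponded to 0.838 to 2.14 CPM (counts scaled to a common library size, the scale used throughout), and this floor bounded groups of Fgf5, Fgf8, Fgf17, Fgfr3 and Fgfr4. All libraries held 3 counts or fewer of Fgf5 at day 0, of Fgf17 at day 0, of Fgf8 at day 0, in C1T and in C1HDT, of Fgfr3 in C1T, and of Fgfr4 in C1, C1M and C1T. Replicate libraries differed by more than sampling noise in all 48 pairs within groups. Ctnnb1, the β-catenin gene itself, checked the labels: its mean was 41.2 ± 5.70 CPM (SD, n = 4) in C1H, 29.2 ± 4.29 in C1MDT and 30.8 ± 3.75 in C1HDT, against 6.21 to 12.3 CPM in the other 5 groups. C1M, with 9.45 to 17.7 CPM, overlapped the uninduced C1 libraries, which held 5.19 to 11.0 CPM. The libraries are of bulk RNA, so that fewer cells of a type and less RNA per cell cannot be told apart.

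Positions are given on GRCm38 from the GENCODE annotation. Fgf4 (ENSMUSG00000050917) lay at chr7:144847367-144865243 on the plus strand, and Fgf15 (ENSMUSG00000031073) began 31287 bases downstream of it, at chr7:144896531-144900953 on the same strand. Fgf5 (ENSMUSG00000029337) was at chr5:98254184-98277030 on the plus strand. Fgf8 (ENSMUSG00000025219) was at chr19:45736798-45742915 and Fgf17 (ENSMUSG00000022101) at chr14:70636203-70642268, both on the minus strand. Of the receptors, Fgfr1 (ENSMUSG00000031565) was at chr8:25513654-25575718 on the plus strand. Fgfr2 (ENSMUSG00000030849) was at chr7:130162451-133123350 on the minus strand. Fgfr3 (ENSMUSG00000054252) was at chr5:33721674-33737068 and Fgfr4 (ENSMUSG00000005320) at chr13:55152640-55168759, both on the plus strand. The annotated Fgfr2 shares exon bases with Ctbp2 on the same strand, and exons of Fgf15 and Fgfr1 overlap genes on the opposite strand, with no strand setting of the counting stated. The counts of these 3 genes are therefore uncertain by the share of reads that could belong to their neighbours.

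The element that SOX2 and OCT4 are known to bind together in Fgf4 is shown because Fgf4 was the only member that fell past the threshold by day 4 and because the element lies inside the counted transcript. It was found once, in the third of 3 exons, within the 3′ untranslated region, at chr7:144864388-144864417 (GRCm38, plus strand), 826 bases before the annotated end. Capitals mark its SOX-type and POU-type letters.
Fgf4 element: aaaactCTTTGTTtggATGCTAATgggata
For Fgfr3, the member with the largest difference between induced and uninduced cells at day 4, the 200 bases before the annotated first exon are shown (RefSeq start, GRCm38.p6, chr5:33721474-33721673, plus strand), with CpG dinucleotides in capitals.
Fgfr3 upstream: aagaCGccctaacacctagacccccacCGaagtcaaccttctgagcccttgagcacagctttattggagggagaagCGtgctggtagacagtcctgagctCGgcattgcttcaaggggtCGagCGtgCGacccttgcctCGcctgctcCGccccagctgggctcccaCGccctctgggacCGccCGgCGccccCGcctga
This stretch held 14 CpG and 65% G and C, and 19.8% of all windows of this length in the RefSeq promoter table held as many CpG. Promoter windows, from 250 bases before to 50 after the start, were present for 5 of the 9 members (Fgf4, Fgf5, Fgfr2, Fgfr3 and Fgfr4), in 6 windows. On both strands, the TCF/LEF motif CTTTGAT was found in 0 of these 6 windows and in 3.73% of all 32851 windows. The SOX motif CTTTGTT, which differs from it in 1 letter and can also be read by TCF/LEF factors, was found in 0 of 6 and in 5.85% of all windows. The POU octamer ATTTGCAT was found in 0 of 6 and in 1.74%, and the GATA motif GATAAG in 1 of 6, that of Fgfr2, and in 7.44%.

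Among the ligands, Fgf4 had a high level in pluripotent cells and a low one at day 4. The C1 libraries held 374, 332, 343 and 412 CPM of Fgf4 in replicates 1 to 4. In C1M they held 347, 402, 352 and 376 CPM, and in C1H 353, 349, 351 and 344 CPM. The 3 day 0 groups overlapped one another. C1T held 147, 135, 136 and 110 CPM. C1MV held 110, 88.4, 76.3 and 99.9 CPM and C1MDT 95.7, 110, 109 and 94.3 CPM. All of these lay below every day 0 library, and C1T was the highest of the day 4 groups. C1HV held 81.1, 81.2, 77.0 and 77.4 CPM and C1HDT 107, 106, 87.1 and 99.1 CPM. The C1HV libraries lay below all those of C1T and of C1HDT. In order, the groups ran C1M, C1, C1H, then C1T, C1MDT, C1HDT, C1MV and C1HV, and the only neighbours in this order whose libraries did not overlap were C1H and C1T.

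Fgf5 was close to absent at day 0 and highest at day 4 in C1T, the cells never induced. Its day 0 counts were 1, 1, 0 and 0 in C1, 0, 0, 1 and 2 in C1M and 0, 1, 2 and 2 in C1H, all at or under the limit of detection. C1T held 13.0, 16.7, 18.6 and 12.4 CPM. C1MV held 3.23, 3.74, 4.36 and 7.13 CPM, less than every C1T library. C1MDT held 7.50, 12.2, 11.4 and 13.1 CPM, which overlapped C1T and lay above C1MV. C1HV held 7.23, 5.11, 5.59 and 7.16 CPM, and C1HDT 11.6, 4.78, 7.96 and 11.6 CPM. Both lay below all C1T libraries and overlapped each other. The order of the means was C1T, C1MDT, C1HDT, C1HV, C1MV and then the day 0 groups, with overlap between all neighbours other than C1MV and C1H.

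Fgf15, which encodes a ligand that acts at a distance through Klotho-type co-receptors and is a marker of early neural tissue, separated by day only. Its 12 day 0 libraries held 0 to 2.28 CPM with a median of 1.25, and its 20 day 4 libraries 11.5 to 25.3 CPM with a median of 19.3. C1T held 11.5, 19.2, 25.3 and 15.0 CPM, a range that covered all 16 libraries of the 4 induced groups, whose values ran from 13.3 to 24.3 CPM. No day 4 group stood apart from another.

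Fgf8 and Fgf17, closely related ligands of the gastrulating embryo and the midbrain, were near the limit of detection. Fgf8 had counts of 0, 0, 1 and 1 in C1, 0, 1, 0 and 0 in both C1M and C1H, and 1, 0, 1 and 0 in C1T. In the induced day 4 groups its counts were 2, 5, 2 and 3 in C1MV, 0, 5, 6 and 1 in C1MDT, 4, 0, 4 and 5 in C1HV and 2, 3, 2 and 2 in C1HDT. Every C1MV and C1HDT library was above every C1T library, and the other pair of induced groups overlapped C1T. Fgf17 had counts of 1, 0, 0 and 0 in C1, 0 in all C1M libraries and 3, 1, 1 and 0 in C1H. At day 4 its counts were 3, 0, 4 and 4 in C1T, 3, 5, 9 and 9 in C1MV, 0, 3, 3 and 10 in C1MDT, 5, 7, 10 and 8 in C1HV and 6, 5, 4 and 7 in C1HDT. All neighbours in the order of its group means overlapped.

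**Figure D1:**
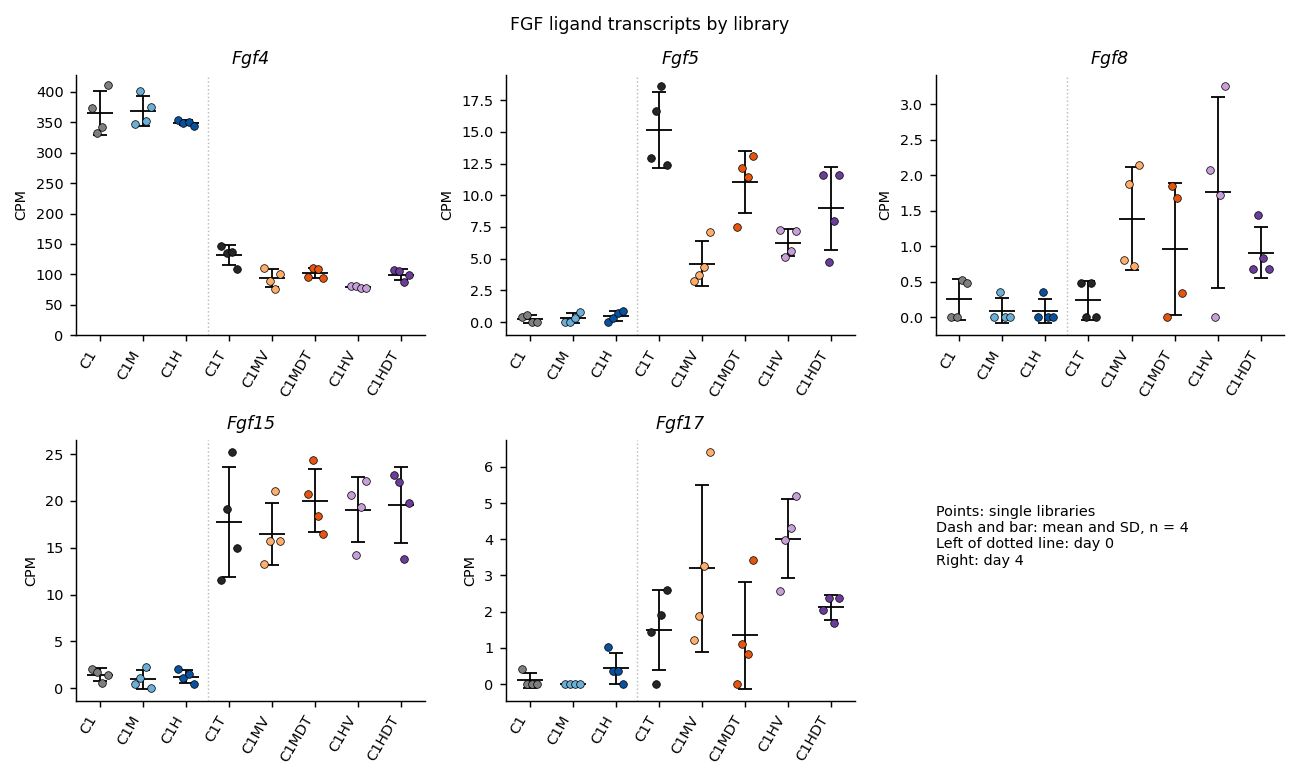
CPM of the 5 ligand genes in each library (points) with the group mean and SD (n = 4), 1 panel per gene and 1 column per group; the dotted line divides day 0 from day 4. Fgf4 lies at 332 to 412 CPM at day 0 and at 76.3 to 147 CPM at day 4, Fgf15 changes the other way, and Fgf5 is highest in C1T.

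Fgfr1, the receptor usually most abundant in pluripotent cells and epiblast, was well above the limit of detection in every group. C1 held 48.7, 60.6, 50.4 and 41.2 CPM. C1M held 78.1, 77.7, 74.3 and 73.5 CPM and C1H 60.6, 67.6, 63.8 and 67.3 CPM. The libraries of both induced groups lay above those of C1. C1T held 59.5, 56.2, 62.9 and 56.1 CPM, which overlapped C1 and C1H and lay below C1M. The 16 induced day 4 libraries held 61.8 to 88.2 CPM with a median of 69.1. Those of C1MDT and C1HDT lay above all C1T libraries, and those of C1MV and C1HV overlapped them.

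Fgfr2, which is expressed in primitive endoderm precursors and in epithelia, separated by day. Its 12 day 0 libraries held 0 to 3.07 CPM and its 20 day 4 libraries 3.63 to 11.0 CPM. C1T held 8.64, 8.74, 11.0 and 5.22 CPM. C1MDT held 6.34, 4.42, 3.63 and 4.13 CPM and C1HDT 4.08, 5.73, 3.77 and 5.11 CPM. C1T was highest on average, but all day 4 neighbours overlapped, C1MV with 5.77 ± 1.69 and C1HV with 7.50 ± 2.46 CPM (SD, n = 4) included.

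Fgfr3, a receptor best known in cartilage and neural progenitors, was the member that divided induced from uninduced cells at day 4. C1 held 4.20, 1.13, 2.08 and 1.92 CPM. C1M held 3.40, 2.84, 3.26 and 4.13 CPM and C1H 3.75, 2.79, 4.40 and 1.68 CPM, so that the day 0 groups overlapped. C1T held 0.960, 0.833, 1.43 and 1.31 CPM, from counts of 2, 2, 3 and 2. C1MV held 8.87, 11.2, 13.1 and 5.71 CPM and C1MDT 15.6, 13.3, 12.0 and 7.91 CPM. All 8 were above every day 0 library. C1HV held 11.4, 10.2, 10.3 and 11.1 CPM and C1HDT 16.3, 10.0, 9.64 and 13.6 CPM. The 4 induced day 4 groups overlapped one another and lay clear of the other 4.

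Fgfr4, the receptor that prefers Klotho-type co-receptors in liver and gut, was the lowest counted receptor. Its group means were 0.995 ± 0.585 CPM in C1, 0.865 ± 0.282 in C1M, 1.51 ± 0.852 in C1H and 0.954 ± 0.244 in C1T (SD, n = 4). In the induced day 4 groups they were 2.55 ± 1.76 (C1MV), 1.96 ± 0.987 (C1MDT), 1.94 ± 0.904 (C1HV) and 2.87 ± 1.03 CPM (C1HDT). Of these, only the C1HDT libraries, with 2.04, 1.91, 3.77 and 3.75 CPM, lay above all C1T libraries.

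**Figure D2:**
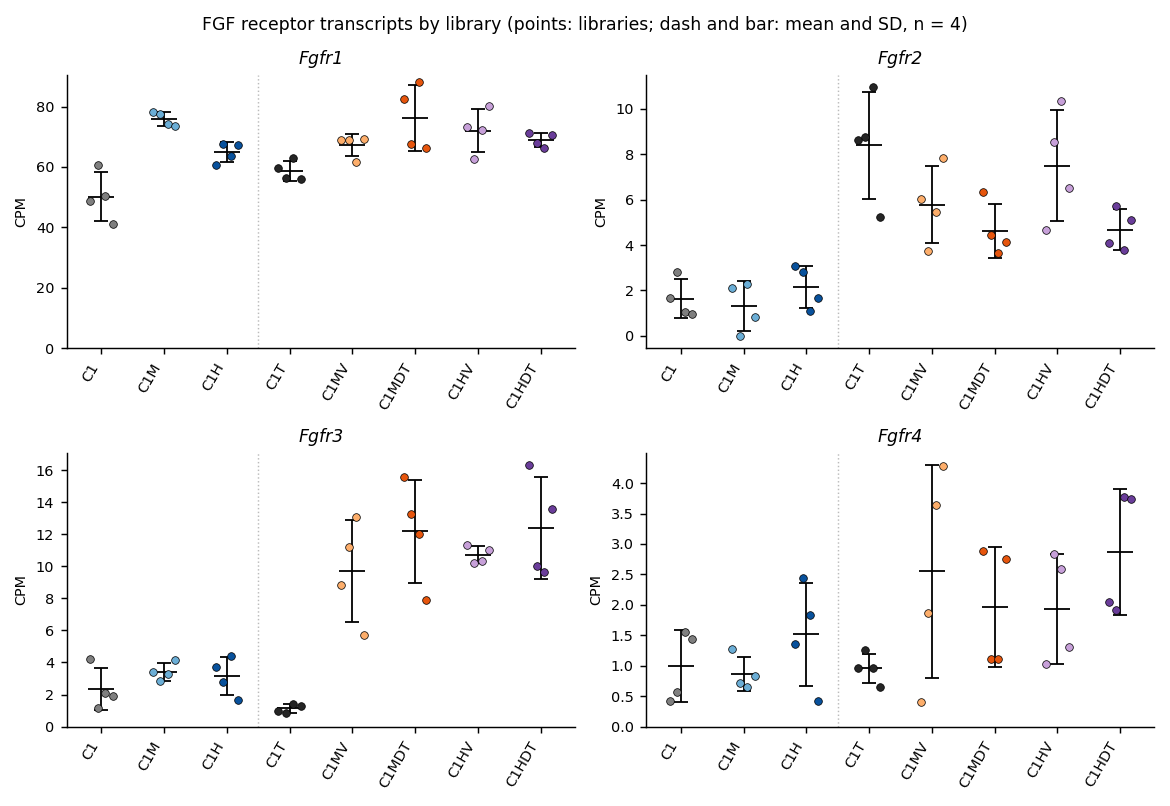
CPM of the 4 receptor genes in each library (points) with the group mean and SD (n = 4), drawn as for the ligands. Fgfr3 lies at 5.71 to 16.3 CPM in the 16 induced day 4 libraries and at 0.833 to 1.43 CPM in C1T, whereas Fgfr2 divides by day, and the group means of Fgfr1 run from 50.2 to 76.2 CPM.

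Induced and uninduced pluripotent cells were compared first, with edgeR's quasi-likelihood test and the false discovery rate (FDR, Benjamini-Hochberg over 15280 genes, threshold 0.05). Fgfr1 was the 1 member past the threshold of 9 in C1M versus C1, where 26.3% of all tested genes passed, and again in C1H versus C1, where 25.9% passed. Fgfr1 rose by 0.60 ± 0.11 on the log2 scale in C1M (SE, FDR 7.71e-06) and by 0.38 ± 0.12 in C1H (FDR 0.00868). Without the C1 replicate 4 library the second difference was 0.29 and its FDR 0.0806. None of the 9 passed in C1H versus C1M, where 1.77% of tested genes did. With edgeR, 2 members had an unadjusted p under 0.05 in it, and DESeq2 also called 0. None of the member ligands showed a difference past the threshold at day 0. Fgf5, Fgf8 and Fgf17 held 3 counts or fewer in every day 0 library, and Fgf15 held 11 to 14 summed counts per group. For Fgf4 the 95% interval of the log2 change ran from -0.15 to 0.17 in C1M and from -0.23 to 0.09 in C1H.

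Between day 0 and day 4, Fgf4 was the only member to fall past the threshold, and Fgf5, Fgf15, Fgf17 and Fgfr2 rose in every comparison. Fgf5, Fgf8 and Fgf17 entered the test through the day 4 libraries in which they were higher, so their part of the counts that follow is a description. With no filter on low counts, the calls of these 3 genes between days also passed, the highest FDR being 0.0498 for Fgf8 in C1HDT versus C1H. That fit used the same counts, so it is no separate support for these calls. In C1T versus C1, 5 of 9 members passed the threshold, a share near that of all tested genes, 49.3%. The counts were 8 of 9 for C1MV versus C1M, beside 45.9%, and 7 of 9 for C1MDT versus C1M, beside 52.4%. They were 7 of 9 for C1HV versus C1H, beside 47% of all tested genes, and 7 of 9 for C1HDT versus C1H, beside 55.7%.

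Fgf4 fell in all 5. It was 2.75-fold lower in C1T than in C1, a log2 change of -1.46 ± 0.09 (FDR 2.99e-35). Its log2 change was -1.99 ± 0.09 in C1MV and -1.85 ± 0.08 in C1MDT. From C1H, it was -2.14 ± 0.09 to C1HV and -1.81 ± 0.08 to C1HDT. Every day 4 library was below every day 0 library of its comparison.

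Fgf5 and Fgf15 rose in all 5. Summed over the libraries, Fgf5 rose from 2 counts in C1 to 125 in C1T, a ratio, corrected for library size, of 62.9 with a 95% counting interval of 17.0 to 525 (FDR of the fit 3.72e-18). The ratio of its summed counts to those of the matching day 0 group, which held 3 counts in C1M and 5 in C1H, was 15.3 (4.87 to 77.2) in C1MV and 40.6 (13.6 to 200) in C1MDT. It was 13.6 (5.42 to 43.7) in C1HV and 20.4 (8.46 to 64.4) in C1HDT. Fgf15 rose by 3.56 ± 0.36 on the log2 scale in C1T (FDR 1.67e-16), and by 3.95 ± 0.36 and 4.21 ± 0.35 in C1MV and C1MDT. From C1H it rose by 3.84 ± 0.35 to C1HV and by 3.88 ± 0.33 to C1HDT. The rise of Fgf15 in the 4 induced comparisons did not differ from that in C1T past the threshold, by the test of the difference described further on (FDR 0.527 to 0.817). Among markers of neural ectoderm, the mean level of Sox1 was 22.8 CPM in C1 and 92.3 CPM in C1T (FDR 4.36e-31), that of Pax6 0.576 and 24.0 CPM (FDR 6.61e-25), that of Sox3 1.15 and 25.7 CPM (FDR 1.24e-24) and that of Tubb3 11.0 and 66.9 CPM (FDR 2.38e-32). Nes, at 11.1 and 9.63 CPM, did not pass (FDR 0.559). Against C1T, where Fgf15 did not pass in any induced group, Pax6 was lower by -0.96, -0.66, -0.66 and -0.62 in C1MV, C1MDT, C1HV and C1HDT. Sox3 was lower in C1MV and C1HV by -0.90 and -0.69, Sox1 higher in C1MDT and C1HDT by 0.84 and 0.62, Nes higher in the same groups by 0.60 and 0.83, and Tubb3 higher in C1MV, C1HV and C1HDT by 0.83, 0.55 and 0.30. The markers named are only some genes of a longer list, whose counts are not reported here, so they do not give its balance. The part of such cells in the level of Fgf15 was not tested.

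Fgf17 was past the threshold in all 5 comparisons, on few counts and having met the filter only through day 4 libraries, since 1 CPM was reached in 1 library at day 0. Its summed counts were 11 in C1T and 1 in C1, a ratio of 11.1 with a counting interval of 1.61 to 476 (FDR 0.0183). Without the C1 replicate 4 or the C1T replicate 4 library the FDR was 0.0502 to 0.0601. C1M held 0 counts of Fgf17 in total, against 26 in C1MV and 16 in C1MDT, and the lower 95% counting limit of the ratio was 7.52 for C1MV and 3.76 for C1MDT. The C1MV libraries lay above those of C1M, whereas C1MDT, with 0 in replicate 1, overlapped them. The log2 change of Fgf17 was 2.99 ± 0.70 in C1HV (FDR 0.00014) and 2.10 ± 0.74 in C1HDT (FDR 0.0111). C1H held 5 counts in total, and the counting interval of the ratio was 3.33 to 28.6 for C1HV and 1.71 to 15.7 for C1HDT. Fgf8 was past the threshold in the 4 induced comparisons and was at 2 counts in both C1T and C1. No library at day 0 or of C1T reached 1 CPM of Fgf8, so it was tested only because of the induced groups in which it was higher. In C1MV versus C1M its ratio was 13.8, with a counting interval of 2.04 to 588 (FDR 0.0102), and in C1HV versus C1H its FDR was 0.00271. Its FDR was 0.0181 in C1MDT versus C1M, and 0.0523 to 0.0768 without any of C1M replicate 3, C1MDT replicate 2 and C1MDT replicate 3. In C1HDT versus C1H the FDR of Fgf8 was 0.0364, and it was 0.0753 to 0.0846 without any of C1H replicates 1, 3 and 4 and C1HDT replicate 2.

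Of the receptors, Fgfr2 rose in all 5 comparisons. Its log2 change was 2.38 ± 0.44 in C1T (FDR 1.25e-06), 2.04 ± 0.45 and 1.72 ± 0.46 in C1MV and C1MDT, 1.77 ± 0.40 in C1HV and 1.06 ± 0.41 in C1HDT (FDR 0.0215). The last lost the threshold without C1H replicate 3, C1H replicate 4 or C1HDT replicate 2, at FDR 0.0512 to 0.0841. Fgfr3 rose in the 4 induced comparisons, by 1.57 ± 0.32 and 1.80 ± 0.30 in C1MV and C1MDT, and by 1.73 ± 0.33 and 1.96 ± 0.30 in C1HV and C1HDT, with FDR from 7.78e-09 to 1.1e-05. In C1T versus C1 its log2 change was -1.10 ± 0.57, which did not pass (FDR 0.104). Fgfr1 did not pass in any of the 5, with a log2 change of 0.23 ± 0.12 in C1T (FDR 0.099). Without C1 replicate 2 that value was 0.34 and its FDR 0.0211. Fgfr4 passed only in C1MV versus C1M, by 1.45 ± 0.63 at FDR 0.0499, and its FDR was between 0.0524 and 0.0784 under the 6 alternative settings that could be fitted. Without any of C1M replicates 2, 3 and 4 and C1MV replicates 3 and 4, the FDR of Fgfr4 was 0.0759 to 0.205.

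**Figure D3:**
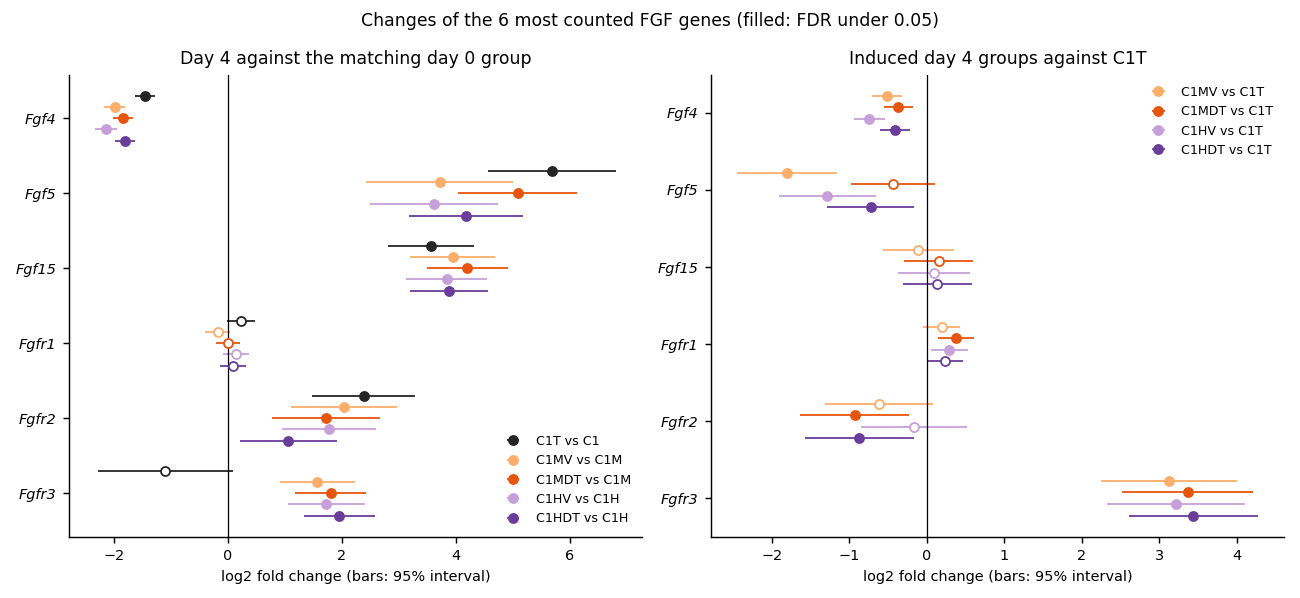
Log2 fold changes with 95% intervals from edgeR for Fgf4, Fgf5, Fgf15, Fgfr1, Fgfr2 and Fgfr3; filled points passed FDR 0.05. On the left each day 4 group is set against its day 0 group and on the right each induced day 4 group against C1T; Fgfr3 lies at 3.13 to 3.44 on the right and Fgf15 at -0.11 to 0.15. Fgf8, Fgf17 and Fgfr4, the lowest counted members, are left out.

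The groups that had expressed exogenous β-catenin were then compared with C1T at day 4, all 4 against the same C1T libraries. Of the 9 members, 3 passed in C1MV versus C1T, beside 30.2% of all tested genes, and 4 in C1MDT versus C1T, beside 33.4%. There were 5 of 9 in C1HV versus C1T, beside 28%, and 5 of 9 in C1HDT versus C1T, beside 33.5%. Leaving out single libraries moved the count to between 2 and 4 for C1HDT and for C1MDT, and to between 3 and 5 for C1HV. Fgf8, as said, was tested only because of the induced groups.

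Fgfr3 was higher in each of the 4 groups than in C1T, whose libraries held 2 or 3 counts each, at the floor, so the size of the difference is bounded by the counting intervals given here. Its log2 difference from C1T was 3.13 ± 0.43 in C1MV (FDR 2.82e-10), 3.37 ± 0.41 in C1MDT (FDR 2.86e-12), 3.21 ± 0.43 in C1HV (FDR 2.21e-10) and 3.44 ± 0.41 in C1HDT (FDR 6.94e-13). As a ratio of summed counts, with 9 counts in C1T, this was 9.30 (95% counting interval 4.70 to 21.0), 10.6 (5.43 to 23.8), 9.66 (4.85 to 21.9) and 11.5 (5.87 to 25.7). These calls held without any single library and under all alternative settings in which Fgfr3 could be tested.

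Genes that mark primitive endoderm moved with Fgfr3. All 10 genes of a fixed marker list (Gata4, Gata6, Sox17, Sox7, Pdgfra, Foxa2, Dab2, Lama1, Col4a1 and Cubn) were higher than in C1T in each of the 4 groups, with median log2 differences of 4.33, 4.53, 4.46 and 4.51. Of all tested genes, 30.2, 33.4, 28 and 33.5% passed in C1MV, C1MDT, C1HV and C1HDT versus C1T. Their summed level was 42.4 to 62.0 CPM in C1T, 726 to 1124 CPM in C1MV, 1338 to 1519 CPM in C1MDT, 939 to 1015 CPM in C1HV and 1227 to 1535 CPM in C1HDT. At day 0 it was 51.8 to 89.3 CPM, and Sox7 was the only marker at 0 in a whole group, C1. The part of such cells in the level of Fgfr3 was not tested. Markers of feeder fibroblasts summed to between 7.54 and 21.6 CPM in all libraries.

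Fgf4 was lower than in C1T in all 4 induced groups, and Fgf5 in 3 of them. For Fgf4 the log2 difference was -0.51 ± 0.09 in C1MV (FDR 2.5e-06), -0.37 ± 0.09 in C1MDT (FDR 0.000516), -0.74 ± 0.10 in C1HV (FDR 1.16e-10) and -0.41 ± 0.09 in C1HDT (FDR 0.00011). For Fgf5 it was -1.80 ± 0.31 in C1MV (FDR 6.46e-07) and -1.29 ± 0.30 in C1HV (FDR 0.000339), the groups from which inducers had been withdrawn. In the groups kept in inducers, the log2 difference of Fgf5 was -0.44 ± 0.26 in C1MDT, which did not pass (FDR 0.204), and -0.73 ± 0.27 in C1HDT (FDR 0.0264). Without C1T replicate 2, C1T replicate 3, C1HDT replicate 2 or C1HDT replicate 3, the last value was -0.66 to -0.54 and did not pass (FDR 0.0701 to 0.143).

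Markers of formative epiblast were also lower than in C1T. Of the 8 genes Otx2, Pou3f1, Dnmt3a, Dnmt3b, Lef1, Sall2, Etv4 and Foxd3, 7 were lower than in C1T in C1MV and in C1HV, 5 were lower in C1MDT and in C1HDT, and none was higher. Of all tested genes, 30.2, 33.4, 28 and 33.5% passed in C1MV, C1MDT, C1HV and C1HDT versus C1T. These shares also stand beside the counts of the pluripotency lists that follow. Their summed level was 2290 to 2707 CPM in C1T, 884 to 1011 CPM in C1MV, 971 to 1029 CPM in C1HV, 1511 to 1629 CPM in C1MDT and 1494 to 1639 CPM in C1HDT, and no marker was at 0 in a whole group. Fgf5 itself did not pass in C1MDT (FDR 0.204). Naive pluripotency markers, 12 genes, were higher than in C1T for 10 genes and lower for 1 in C1MV, and higher for 9 and lower for 1 in C1HV. In C1MDT 2 were higher and 5 lower, and in C1HDT 3 were higher and 4 lower. The 6 general pluripotency markers, Pou5f1 and Sox2 among them, were lower for 3, 4, 3 and 4 genes in C1MV, C1MDT, C1HV and C1HDT, and 1 was higher in C1HV. The part of these cell states in the levels of Fgf4 and Fgf5 was not tested.

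**Figure D4:**
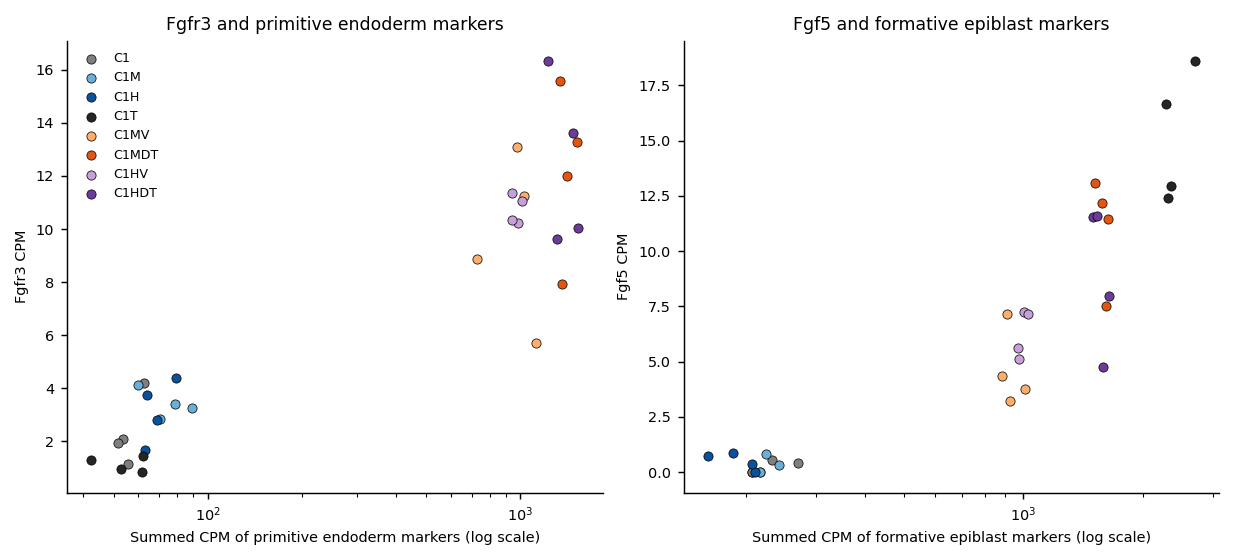
Each point is 1 of the 32 libraries, with the summed CPM of a marker list on the log x axis: Fgfr3 CPM against the 10 primitive endoderm markers (left) and Fgf5 CPM against the 8 formative epiblast markers (right). The 16 induced day 4 libraries stand apart on the left, at 726 to 1535 CPM of the markers and 5.71 to 16.3 CPM of Fgfr3; on the right the C1T libraries have the highest marker sums.

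Fgf15 did not pass against C1T in any of the 4 groups, with 95% intervals of the log2 difference of -0.57 to 0.35 in C1MV, -0.29 to 0.59 in C1MDT, -0.38 to 0.56 in C1HV and -0.31 to 0.58 in C1HDT. Fgfr2 was lower than in C1T in the groups kept in inducers, by a log2 difference of -0.93 ± 0.34 in C1MDT (FDR 0.0249) and -0.87 ± 0.34 in C1HDT (FDR 0.0369). The C1MDT value lost the threshold without any of C1T replicates 2 and 3 and C1MDT replicates 3 and 4 (FDR 0.0602 to 0.108). The C1HDT value lost it without any of C1T replicates 1, 2 and 3 and C1HDT replicates 1, 3 and 4 (FDR 0.0542 to 0.132), and with no filter its FDR was 0.0501. In the withdrawn groups the log2 difference of Fgfr2 was -0.62 ± 0.34 in C1MV and -0.17 ± 0.33 in C1HV, and neither passed.

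Fgfr1 was higher than in C1T by 0.37 ± 0.11 in C1MDT (FDR 0.00464) and by 0.29 ± 0.12 in C1HV (FDR 0.0483). Without C1MDT replicate 3 the first was 0.30 at FDR 0.0509. The second did not pass without any of C1T replicates 1, 2 and 4 and C1HV replicates 1, 3 and 4 (FDR 0.0643 to 0.115). The FDR of Fgfr1 in C1HV was 0.0524 with a replicate block and 0.0585 with no filter. Fgf8, which met the filter only through induced libraries, was past the threshold in C1HV only, with 13 counts against 2 in C1T, a ratio of 6.98 with a counting interval of 1.58 to 63.7 (FDR 0.042). It did not pass without any of C1T replicates 2 and 4 and C1HV replicates 1, 3 and 4, at FDR 0.067 to 0.138, nor with DESeq2, at 0.0742, nor with no filter, at 0.0565. Fgfr4 was higher in C1HDT by 1.51 ± 0.62 (FDR 0.0492). It did not pass without any of the 4 C1T libraries or C1HDT replicates 3 and 4 (FDR 0.0627 to 0.13), and its FDR was 0.0582 with a replicate block, 0.0527 with RLE factors, 0.0761 with DESeq2 and 0.0773 with no filter. Fgf17 passed in none of the 4, with a log2 difference of 1.495 ± 0.61 in C1HV (FDR 0.0564) that reached an FDR of 0.0328 to 0.0428 without C1T replicate 4 or C1HV replicate 1. It was 0.0428 when scaled by library size only and 0.0329 in a fit of only the groups compared.

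The groups that differed in duration of induction, and those sorted as middle and high, were compared within day 4. Between constant induction and withdrawal, 1 of 9 members passed in C1MDT versus C1MV, where 12.6% of all tested genes did, and 1 of 9 in C1HDT versus C1HV, where 16% did. In the first, Fgf5 was higher under constant induction by 1.36 ± 0.32 on the log2 scale (FDR 0.000682). In the second, Fgf4 was higher by 0.33 ± 0.10 (FDR 0.0102), and without C1HV replicate 3 or C1HDT replicate 1 it was higher by 0.28 to 0.30 and did not pass (FDR 0.053 to 0.0553). The log2 difference of Fgf5 in C1HDT versus C1HV was 0.56 ± 0.32, which did not pass (FDR 0.248). The difference between the 2 durations' effects at middle and high level, tested as an interaction, was -0.81 ± 0.46 for Fgf5 (FDR 0.66). No member passed in that interaction, where 0% of all tested genes did, none had an unadjusted p under 0.05 with edgeR, and DESeq2 also called 0.

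At equal duration, no member passed between the groups sorted as middle and high. The libraries of these pairs overlapped in Ctnnb1 at day 4, which was 25.4 to 34.1 CPM in C1MDT and 28.3 to 36.3 CPM in C1HDT, and 6.91 to 12.1 CPM in C1MV and 4.13 to 8.60 CPM in C1HV. Ctnnb1 counts are of RNA and do not give the level of the fusion protein. The paper measured mCherry under addition and removal of inducers and reports a rise with dose and time of administration in C1MDT and C1HDT. The comparison is of groups that differed in level at sorting and may still have differed in protein at day 4. In C1HV versus C1MV 0 of 9 members passed, where 0.00654% of all tested genes did, 1 had an unadjusted p under 0.05 with edgeR, namely Fgf4, and DESeq2 called 0. In C1HDT versus C1MDT 0 of 9 passed, where 0% of tested genes did, none had an unadjusted p under 0.05 with edgeR and DESeq2 called 0. For Fgfr3 the 95% interval of the log2 difference was -0.49 to 0.65 in the first and -0.43 to 0.58 in the second. For Fgf4 it was -0.44 to -0.02 and -0.23 to 0.15.

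Whether the change over the 4 days differed between induced and uninduced cells was tested as a difference of differences, in which all 4 tests share C1 and C1T. For C1MV, 2 of 9 members passed, beside 22.5% of all tested genes. The same number passed for C1MDT, beside 24.4%, for C1HV, beside 21.9%, and for C1HDT, beside 25.2%. Fgf4 and Fgfr3 were these members each time. The fall of Fgf4 was greater than in uninduced cells by a log2 difference of -0.53 ± 0.12 for C1MV (FDR 0.000361), -0.38 ± 0.12 for C1MDT (FDR 0.0104), -0.68 ± 0.13 for C1HV (FDR 6.12e-06) and -0.35 ± 0.12 for C1HDT (FDR 0.0227). The value of Fgf4 for C1MDT did not pass without C1 replicate 2, C1M replicate 2, C1T replicate 1 or C1MDT replicate 4 (FDR 0.0516 to 0.065). The value for C1HDT did not pass without any of C1 replicates 2 and 3, C1H replicate 1, C1T replicates 1 and 2 and C1HDT replicates 3 and 4 (FDR 0.0583 to 0.115). For Fgfr3 the difference of the changes was 2.67 ± 0.66 for C1MV (FDR 0.000865), 2.90 ± 0.65 for C1MDT (FDR 0.000213), 2.83 ± 0.66 for C1HV (FDR 0.000438) and 3.06 ± 0.65 for C1HDT (FDR 8.52e-05), and it passed without any single library. The difference for Fgfr1 in C1MV was -0.41 ± 0.16 (FDR 0.0511), and without C1 replicate 2 it was -0.49 (FDR 0.0246). It passed with RLE factors (FDR 0.0476), library size only (0.0462), DESeq2 (0.0479) and the filter of 1 CPM in all 32 libraries (0.0378), and not with the other 3 alternative settings (0.0550 to 0.0770).

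The genes whose log2 CPM ran most like that of a member over the 32 libraries were found among 9307 genes by Pearson's r, as a description, since the libraries share the division between day 0 and day 4. For Fgf4 they were Capns1 (r = 0.978), Pmepa1 (0.978) and Bcat1 (0.974). For Fgf5 they were Dnmt3b (0.962), Ccnd2 (0.959) and Sulf1 (0.956), of which Dnmt3b is a DNA methyltransferase in the formative list and Sulf1 a heparan sulfate 6-O-endosulfatase. For Fgf15 they were Lin28a (0.971), Vim (0.970) and Pcbp4 (0.970). Fgfr3 ran most like Lama1 (0.944), a laminin chain of the primitive endoderm list, Srgn (0.935) and Flrt3 (0.935), a membrane protein that binds FGF receptors. The highest r was 0.834 for Fgf17 (Arrdc3), 0.763 for Fgfr1 (Elmod2), 0.743 for Fgf8 (Palm) and 0.701 for Fgfr4 (Gnao1).

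Of 13 other secreted FGF ligand genes, 6 had enough counts to be tested. From C1 to C1T, 2 rose and 2 fell, beside 49.3% of all tested genes, with a list median of -0.66. Fgf1, a broad-acting ligand, rose from 3.90 ± 2.12 to 23.9 ± 2.42 CPM (log2 change 2.62 ± 0.28, FDR 3.67e-15), and Fgf22 fell by 1.32 on the log2 scale. At day 0, Fgf1 was higher in C1H than in C1, by 1.53 ± 0.31 (FDR 3.21e-05), and was the only 1 of the 6 to pass there, beside 25.9% of all tested genes. In C1M versus C1 its log2 difference was 0.23 and did not pass (FDR 0.689), and 1 of the 6, Fgf2, was lower (FDR 0.0446), beside 26.3%. Against C1T, 2 genes were higher in each induced group: Fgf10, a ligand of Fgfr2 in organ budding, and Fgf3, known from inner ear and primitive streak. Fgf10 had a mean of 0.729 ± 0.589 CPM in C1T and of 7.98 to 12.8 CPM in the induced groups, with log2 differences of 3.31, 3.72, 3.59 and 4.03 for C1MV, C1MDT, C1HV and C1HDT. Fgf3 had 6.71 ± 2.18 CPM in C1T and 16.5 to 27.5 CPM in the induced groups, with differences of 1.75, 1.90, 1.29 and 2.03. Fgf1 was lower than in C1T in C1MV, C1MDT and C1HDT, by -0.70 ± 0.22, -0.997 ± 0.22 and -1.39 ± 0.23. The numbers of this list past the threshold were 2 higher and 1 lower in C1MV, 2 and 2 in C1MDT, 2 and 0 in C1HV and 2 and 1 in C1HDT, of 6 tested and beside 30.2, 33.4, 28 and 33.5% of all tested genes.

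The intracellular FGF homologous factors, which bind sodium channels rather than receptors, had 2 of 4 genes tested. Fgf13 was higher than in C1 in C1M by 1.61 ± 0.58 (FDR 0.0273) and in C1H by 1.72 ± 0.57 (FDR 0.0152), and Fgf11 was lower in C1T than in C1 by -1.17 ± 0.50 (FDR 0.0412). Neither passed in any of the 4 comparisons with C1T. Among 8 co-receptors and binding proteins, 7 were tested, and 1 rose and 2 fell in C1T versus C1, beside 49.3% of all tested genes. Against C1T, 2, 3, 2 and 3 of the 7 were higher in C1MV, C1MDT, C1HV and C1HDT, and none was lower, a share near that of all tested genes (30.2, 33.4, 28 and 33.5%). Flrt3 had 4.66 ± 1.32 CPM in C1T and 43.6 to 61.3 CPM in the induced groups, with log2 differences of 3.18, 3.70, 3.30 and 3.67. Klb, β-Klotho, the co-receptor for endocrine FGFs such as Fgf15, had 1.06 ± 0.634 CPM in C1T and 3.99 to 8.75 CPM in the induced groups, with differences of 1.98, 3.09, 2.19 and 2.95.

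Heparan sulfate genes, 19 in all, were all tested. From C1 to C1T, 6 rose and 5 fell, beside 49.3% of all tested genes past the threshold. Sulf1 rose from 4.40 ± 1.88 to 135 ± 5.94 CPM (log2 change 4.88 ± 0.18), whereas Hs6st1, a heparan sulfate 6-O-sulfotransferase, fell from 344 ± 28.6 to 70.8 ± 8.81 CPM (-2.29 ± 0.09). Against C1T, 6 were higher and 2 lower in C1MV, 5 and 1 in C1MDT, 3 and 1 in C1HV and 5 and 1 in C1HDT, beside 30.2, 33.4, 28 and 33.5% of all tested genes in the same order. Gpc3, a glypican, was higher in each group by 1.81, 2.58, 2.27 and 2.20, and Sulf1 lower in each by -0.70, -0.37, -0.51 and -0.45.

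The adaptors and the RAS to ERK cascade had 18 of 19 genes tested. In C1T versus C1, 7 rose and 5 fell, beside 49.3% of all tested genes, with a median of -0.03. Mapk3, which encodes ERK1, rose from 27.7 ± 8.44 to 82.8 ± 0.930 CPM and Braf from 77.7 ± 8.34 to 163 ± 23.0 CPM. Frs2, the docking adaptor of FGF receptors, fell from 24.9 ± 0.639 to 14.7 ± 5.00 CPM. Against C1T, Frs2 was higher in C1MV, C1MDT, C1HV and C1HDT by 0.72, 0.78, 0.62 and 0.86 and Mapk3 by 0.73, 0.81, 0.59 and 0.75. Braf was lower by -1.07, -1.02, -0.89 and -0.97. In all, 3 genes were higher and 6 lower in C1MV, 6 and 3 in C1MDT, 2 and 3 in C1HV and 5 and 4 in C1HDT, where 30.2, 33.4, 28 and 33.5% of all tested genes passed. At day 0, 3 were higher and 3 lower in C1M than in C1, and 4 and 3 in C1H, beside 26.3 and 25.9% of all tested genes.

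Of 13 feedback inhibitors and transcriptional targets of ERK, 8 rose, 1 fell and 4 did not pass in C1T versus C1, beside 49.3% of all tested genes past the threshold, with a median log2 change of 1.54. Dusp4, a nuclear ERK phosphatase, rose from 1.32 ± 0.683 to 36.7 ± 3.66 CPM (4.72 ± 0.30, FDR 4.98e-32) and Spry4, a Sprouty inhibitor, from 0.518 ± 0.467 to 10.8 ± 2.06 CPM (4.32 ± 0.53, FDR 1.66e-12). The immediate early gene Fos fell, by 2.31 on the log2 scale. At day 0, Etv4 and Etv1, ETS factors downstream of FGF, were lower in C1M than in C1 by -1.93 ± 0.23 and -1.91 ± 0.21, and in C1H by -2.06 ± 0.23 and -2.40 ± 0.22. Fos was higher by 1.57 ± 0.34 in C1M and 1.35 ± 0.35 in C1H. In the whole list 3 were higher and 3 lower in C1M, and 2 and 3 in C1H, beside 26.3 and 25.9% of all tested genes.

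Against C1T at day 4, 1 of these 13 genes was higher and 6 lower in C1MV, 0 and 5 in C1MDT, 3 and 6 in C1HV and 0 and 5 in C1HDT, with list medians of -0.36, -0.20, -0.45 and -0.15. Of all tested genes, 30.2, 33.4, 28 and 33.5% passed in these comparisons. Spry4 was lower by -1.28 ± 0.34 in C1MV, -1.01 ± 0.32 in C1MDT and -1.24 ± 0.33 in C1HDT. Etv4, which is also in the formative epiblast list, was lower by -1.34 ± 0.13 in C1MV and by -1.65 ± 0.14 in C1HV, from 147 ± 9.18 CPM in C1T to 57.8 ± 13.6 and 47.2 ± 7.76 CPM. Dusp4 was higher in C1MV by 0.49 ± 0.15 (FDR 0.00699). In C1HV, Fos and Egr1 were higher by 2.16 ± 0.62 and 1.01 ± 0.40. Between constant induction and withdrawal, 2 of the 13 genes were higher and 2 lower in C1MDT versus C1MV, beside 12.6% of all tested genes, and 2 and 1 in C1HDT versus C1HV, beside 16%.

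**Figure D5:**
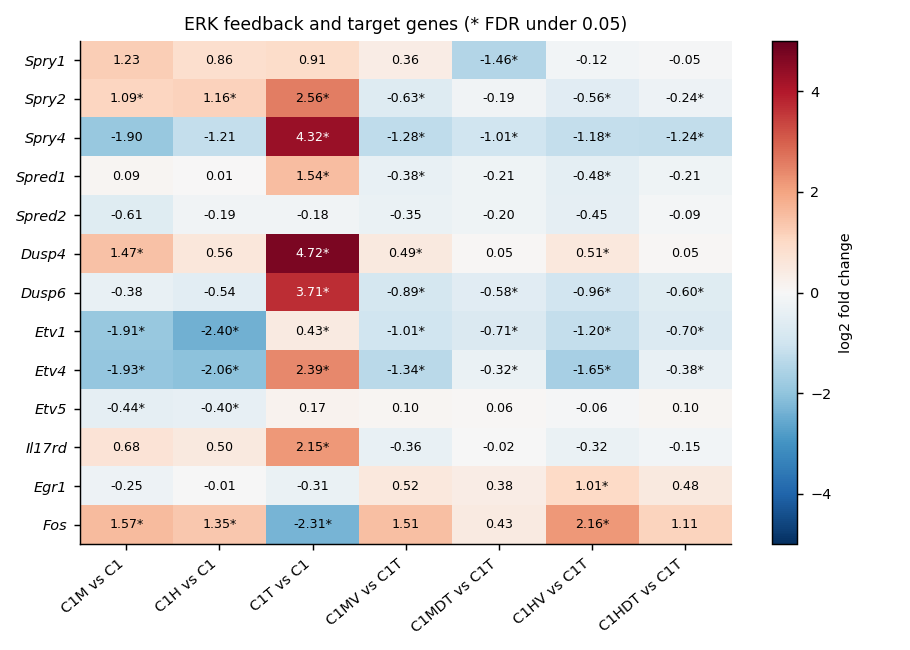
Log2 fold changes (colour) of the 13 ERK feedback and target genes (rows) in 7 comparisons (columns); an asterisk marks FDR under 0.05 by edgeR. In C1T versus C1, 8 genes rose and 1 fell, and against C1T more genes were lower than higher in each of the 4 induced groups.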

How the data were processed

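The 32 samples were QuantSeq 3′ libraries of total RNA. Per the labels and the study's methods, the authors trimmed reads with bbduk, aligned them with STAR to mm10 and counted reads per gene with htseq-count against Ensembl annotation; the deposited values are raw counts of uniquely mapped reads per gene, not normalized. The strand setting is not given in the sources used here. Rows that name no gene took 58.1 to 63.5% of the reads and were left out of library sizes and tests. The tables hold 31053 genes, of which 30934 have a name.

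Groups were taken from the labels. The 15280 genes that reached 1 CPM in 4 or more of the libraries were fitted with edgeR 4.0.16 (R 4.3.3, limma 3.58.1): TMM factors, robust quasi-likelihood fit, group as the only term, 24 residual degrees of freedom, Benjamini-Hochberg FDR 0.05. CPM was scaled by TMM. The SE is the log2 change divided by the square root of F. Ratios of summed counts carry exact 95% intervals that, like the floor of 3 counts, cover counting error only. The 9 genes, the pathway lists and the marker lists were chosen with earlier results of these data known. From each pathway list, up to 2 genes in each direction past the FDR could be named (mean log2 CPM of 1 or more), and 3 like genes per member (prior count 2, mean log2 CPM of 3 or more). The like genes of Fgfr2 and the counts over the neural ectoderm list are not reported here. Alternatives were RLE factors, library size only, DESeq2 1.42.0, no filter, 1 CPM in all 32 libraries, a replicate block, a separate fit for the groups of each comparison, and omission of each library in turn. The procedure was tested on simulated counts. Figures used Python 3.11.15, pandas 2.3.3 and Matplotlib 3.10.9. P-values measure the spread between the 4 libraries of a group, labelled biological replicates. A figure legend of the paper places these samples in the same experiment. The spread between separate experiments or cell lines is therefore not measured.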

Additional observations from a re-analysis of the deposited data

Results flagged for a closer look

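In 1 of 57 sets of 4 libraries tested for a library far from the other 3 (Dixon's test at 95%), Fgfr1 in C1MV replicate 3 stood apart, at 61.8 CPM against 68.9 to 69.2 CPM in the other libraries of that group. Chance gives such a result in about 1 of 20 sets.

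The change of Fgf4 from day 0 to day 4 differed from that in uninduced cells by a test of the difference itself, with log2 differences of the changes of -0.53 for C1MV, -0.38 for C1MDT, -0.68 for C1HV and -0.35 for C1HDT (edgeR). The change of Fgfr3 differed in the same test by 2.67, 2.90, 2.83 and 3.06 for the same 4 groups. All of these share the C1 and C1T libraries.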

How the results depend on the processing

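No value of a member past the threshold turned its direction under any alternative. With the filter set to 1 CPM in all 32 libraries, under which most members are no longer tested, the number of members called was 1 for C1T versus C1 and for each of the other 4 comparisons between days, 1 for C1MV and for C1HDT versus C1T, 2 for C1MDT and for C1HV versus C1T, 0 for C1MDT versus C1MV and 1 for the differences of changes of C1MDT, C1HV and C1HDT. With no filter it was 3 for C1HV and for C1HDT versus C1T; the cause was not tested. Leaving out each library in turn, the number called was 0 to 1 for C1H versus C1 and for C1HDT versus C1HV, 4 to 6 for C1T versus C1, 7 to 8 for C1MV versus C1M, 6 to 7 for C1MDT versus C1M, 5 to 7 for C1HDT versus C1H, 2 to 4 for C1MDT and for C1HDT versus C1T, 3 to 5 for C1HV versus C1T, 2 to 3 for the difference of changes of C1MV and 1 to 2 for those of C1MDT and C1HDT. Replicate numbers did not pair the libraries: the mean correlation of deviations from the group means was -0.0016 for libraries of the same number and 0.00054 for others, and -0.042 to 0.028 by pair of groups. A fit with a replicate block called 7 members for C1MV versus C1M and 4 for both C1HV and C1HDT versus C1T, and all other counts were as without it. DESeq2 gave 7, 4 and 4 for the same 3 comparisons and 3 for the difference of changes of C1MV. Depth limits Fgf8, Fgf17 and Fgfr4, as well as Fgf5 at day 0 and Fgfr3 in C1T.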
